A study of Bos taurus with 138 samples.

Results

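The Kruppel-like factors are transcription factors with conserved zinc fingers, and 10 of them were followed as listed rows of a table of 16706 gene symbols: KLF2, KLF3, KLF4, KLF5, KLF6, KLF9, KLF10, KLF11, KLF13 and KLF17. They were chosen by name, with earlier results of these data known, and all 10 passed the filter on low counts in both models used below. RNA came from immature Bos taurus oocytes (germinal vesicle, GV), mature oocytes (metaphase II, MII) and embryos at the 2-cell, 8-cell, morula and blastocyst stages. At each of the 6 stages, 2 sucrose gradients (A and B) were each collected as 10 fractions, F1 to F10, in which mRNA carrying more ribosomes sediments further, and 3 transcriptomes (A, B and C) were made from whole oocytes or embryos. GV oocytes were taken from follicles of slaughterhouse ovaries, MII oocytes were matured from them in vitro, and embryos were made by fertilising matured oocytes in vitro with semen of a single Holstein bull. Every group was treated with cycloheximide to hold ribosomes on mRNA and freed of the zona pellucida. The groups therefore differed by stage and by kind of library, with no other genotype or treatment, and each library was a pool of oocytes or embryos.

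Kruppel-like factors bind GC-rich and CACCC elements in promoters through 3 zinc fingers near their carboxyl end, and their amino-terminal parts decide whether a target is activated or repressed. KLF2, KLF4, KLF5 and KLF17 are known from pluripotent cells and early embryos, KLF5 and KLF6 also from epithelia and the placenta, KLF3 represses with the corepressor CTBP, and KLF9, KLF10, KLF11 and KLF13 can recruit SIN3A. Many members are induced within minutes to hours by growth factors, serum or TGF-beta, and their mRNAs are usually short-lived.

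Levels are given as CPM, counts scaled to a fixed library total after TMM scaling, which sets each library relative to its own total, so a level says nothing of the amount of mRNA per embryo. CPM is not corrected for transcript length, and levels were compared for 1 gene at a time. In pools of whole embryos, fewer cells of a type and less mRNA per cell cannot be told apart. The polysome level is that of the summed counts of F8 to F10 of a gradient (n = 2 gradients per stage), and the transcriptome level has n = 3 per stage. Differences were tested with edgeR's quasi-likelihood test across 14612 genes, with Benjamini-Hochberg adjustment at 0.05, and a change between stages also had to exceed 2-fold. All tests were two-sided, and each log2 fold change is given with its standard error (SE).

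Totals lay between 1229382 and 17342859 counts for single fractions and between 3269386 and 11812567 for transcriptomes, the shallowest of which were those of blastocysts. The stage labels were checked on marker genes: the 7 oocyte markers summed to 11740 to 25470 CPM in transcriptomes up to the 2-cell stage and to 23.8 to 857 CPM in those of later stages, while the 5 trophectoderm markers summed to 4748 to 5446 CPM in blastocyst transcriptomes and to at most 296 CPM in transcriptomes of earlier stages. Markers of other cell types moved with some groups. The 8 cumulus and granulosa markers summed to 322 to 415 CPM in MII transcriptomes against 48.6 to 60.3 CPM in GV transcriptomes, with HAS2 at 169 to 187 CPM, and FSHR and AMH stayed below 1 CPM in both. The 5 fibroblast markers summed to 1182 to 8699 CPM in 8-cell transcriptomes against 34.2 to 78.4 CPM at MII, 24.1 to 51.2 CPM in morulae and blastocysts and 1.42 to 3.99 CPM at GV and 2-cell, and all 5 were highest in 8-cell replicate A, where LUM stood at 8106 CPM against 1690 and 1081 CPM in replicates B and C. In the cumulus list PTGS2 alone stood at 243 to 836 CPM in blastocyst transcriptomes.

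The largest joint change of the 10 members fell between the 2-cell and the 8-cell stage, when the bovine embryonic genome is activated. In the transcriptome 7 of the 10 members rose (KLF3, KLF4, KLF5, KLF6, KLF10, KLF13 and KLF17) and KLF11 fell, where 26.6% of all genes tested rose and 23.5% fell. The same 7 members rose in the polysome pools and KLF11 fell there too, against 21.0% and 25.2% of all genes. The median log2 fold change of the 10 members was 4.85 in the transcriptome and 4.13 in the polysomes, where that of all genes was 0.03 and -0.26. KLF2 and KLF9 changed past the threshold in neither, with log2 fold changes in the transcriptome of -1.53 (SE 1.36) and 3.61 (SE 2.02). Without 8-cell transcriptome replicate A, the library with the most fibroblast marker RNA, the 7 members still rose in the transcriptome, by log2 fold changes from 4.18 for KLF6 to 11.6 for KLF17.

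**Figure D1:**
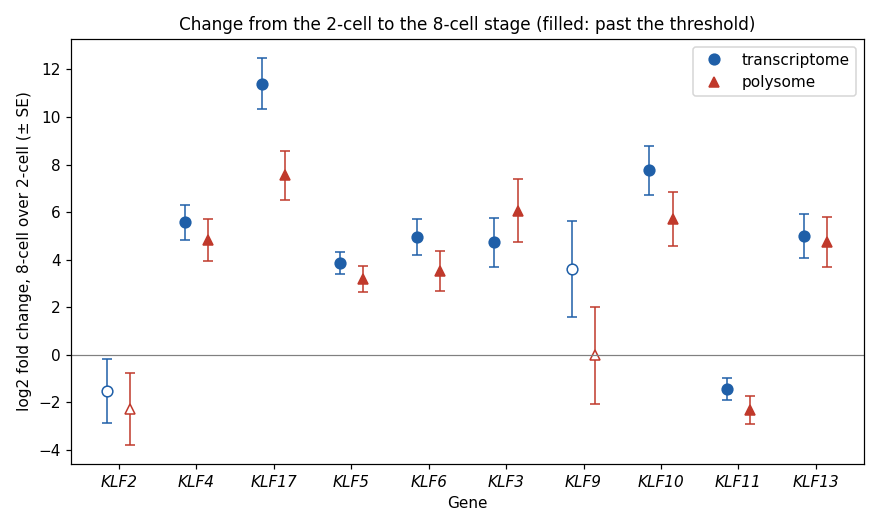
Log2 fold change from the 2-cell to the 8-cell stage (vertical axis, with bars of 1 SE) for each of the 10 genes (horizontal axis), in the transcriptome (circles) and in the polysome pools (triangles). Filled symbols passed the threshold: 7 genes sit above 0 and KLF11 below it in both kinds of library, and KLF2 and KLF9 are open in both.

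**Figure D2:**
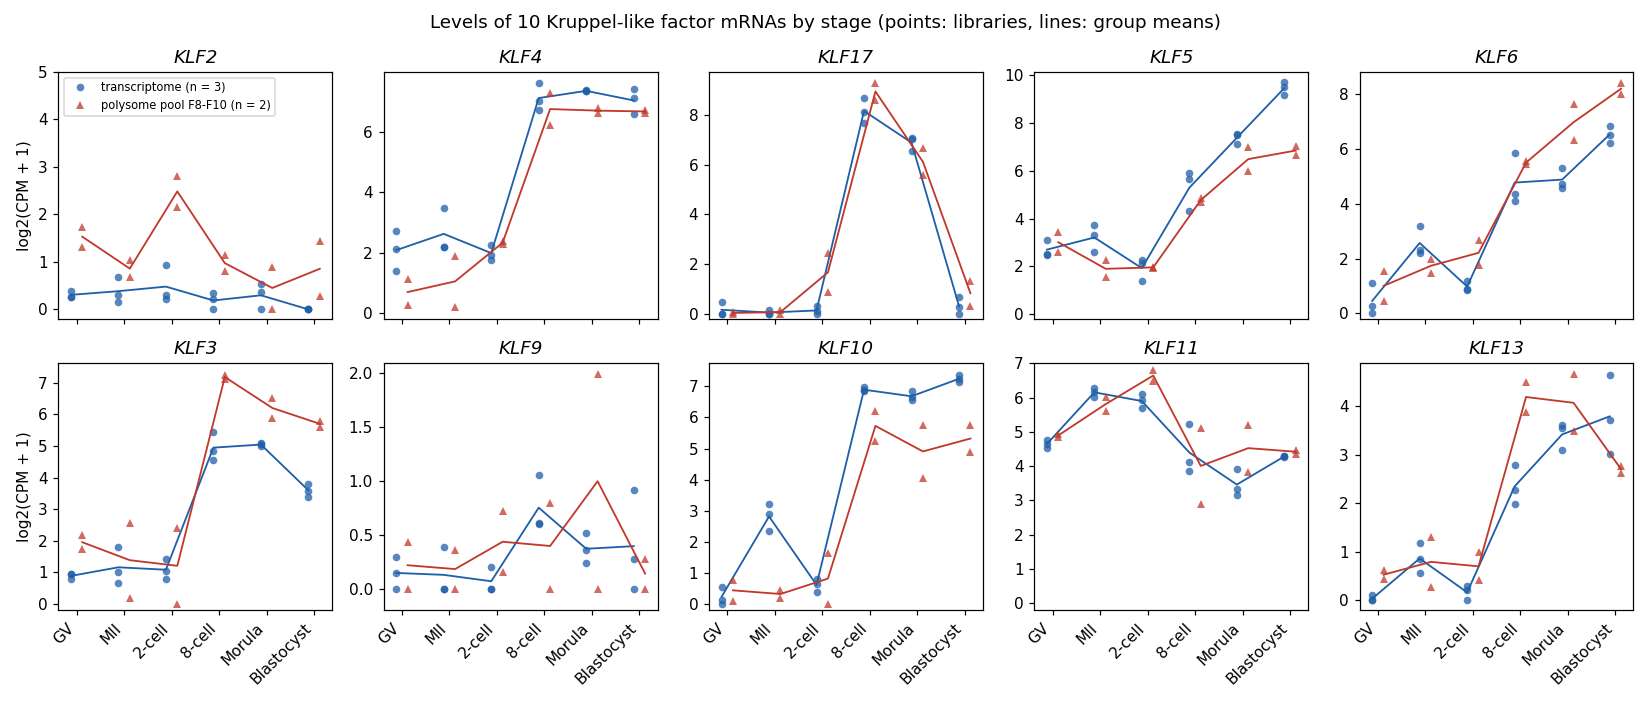
Levels of the 10 genes on a log2(CPM + 1) scale (vertical axes, each with its own range) at the 6 stages (horizontal axes), with a circle for each transcriptome and a triangle for each polysome pool, and lines through the group means. The panels of 7 genes step up at the 8-cell stage, KLF17 returns to the floor at the blastocyst stage, KLF11 is highest at the MII and 2-cell stages, and KLF2 and KLF9 stay below 3 units.

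KLF17, a divergent member known from the human 8-cell embryo and naive pluripotent cells, had both the largest rise and the largest fall of the members in the transcriptome. It had 0 to 4 counts in each of the 9 transcriptomes up to the 2-cell stage. It then stood at 203, 280 and 407 CPM in 8-cell transcriptomes and at 93.0, 130 and 134 CPM in morulae. In blastocyst transcriptomes it was back to 2, 0 and 1 counts. The 8-cell and morula values did not overlap with those of any other stage, nor with each other, but the drop between them did not pass the threshold (log2 fold change -1.32, SE 0.64, adjusted p = 0.175). The rise into the 8-cell stage had a log2 fold change of 11.4 (SE 1.07, adjusted p = 6.79e-09). Since it started from 4 counts, its ratio was 2885, with an exact 95% counting interval from 1127 to 10590, which covers counting error only. The loss after the morula stage ended at 3 counts against 3691, a ratio of 522 with an interval from 178 to 2531 (adjusted p = 1.43e-06).

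The polysome pools held KLF17 mRNA already at the 2-cell stage. The 2-cell polysome pools had 30 and 147 counts (0.834 and 4.52 CPM), while the 3 transcriptomes of that stage had 1, 3 and 0. This difference passed the test (log2 fold change 4.61, SE 1.02, adjusted p = 0.000605), and its counting ratio was 25.2 with an interval from 9.66 to 93.4. Without the pool of replicate B the log2 fold change was 2.93 (adjusted p = 0.0439). In MII polysome pools there were 0 and 3 counts, so the rise to the 2-cell stage had a counting ratio of 48.0 with an interval from 16.2 to 235. That rise rested on gradient B, and without the 2-cell pool of replicate B its adjusted p was 0.0812. Within gradient A the 2-cell light fractions F3 to F5 held 1 count, against 198 in gradient B. Of the polysome fractions of gradient A, F8 alone held KLF17, at 2.69 CPM, with 0 in F9 and F10. In gradient B it was at 5.43 CPM in F8, 6.25 CPM in F9 and 0 in F10, and at 6.61 CPM in F3.

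At the 8-cell stage KLF17 stood at 393 and 616 CPM in polysome pools, which overlapped with the range of the transcriptomes (log2 fold change 0.77, SE 0.70, adjusted p = 0.349). In morulae it stood at 46.8 and 99.8 CPM in polysomes, a fall from the 8-cell stage (log2 fold change -2.78, SE 0.82, adjusted p = 0.011) that did not pass without the morula pool of replicate A (adjusted p = 0.0812). In blastocyst polysomes 35 and 6 counts remained, and the fall from the morula passed the test (log2 fold change -6.36, SE 0.996, adjusted p = 0.000257). In single morula fractions of gradient A, KLF17 was at 0 in F8 and F9 and at 106 CPM in F10, so 1 fraction supplied that pool. In gradient B the highest level was 1132 CPM in F3.

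KLF4, one of the reprogramming factors and a partner of KLF2 and KLF5 in maintaining pluripotency, was low in oocytes and 2-cell embryos and stayed high after the 8-cell stage. Transcriptomes held 1.62 to 5.64 CPM at the GV stage, 3.55 to 10.2 CPM at the MII stage and 2.40 to 3.80 CPM at the 2-cell stage. They then held 105, 196 and 129 CPM in 8-cell embryos, 162, 166 and 164 CPM in morulae and 95.5, 139 and 170 CPM in blastocysts. No library of the 3 later stages overlapped with an earlier one, and the later stages overlapped with each other. The step at the 8-cell stage was a log2 fold change of 5.58 (SE 0.74, adjusted p = 1.22e-06) in the transcriptome and of 4.83 (SE 0.87, adjusted p = 9.41e-05) in the polysomes. Polysome levels from the 8-cell stage on were 74.7 and 154, 110 and 97.7, and 97.5 and 106 CPM.

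In oocytes KLF4 was lower in polysomes than in the transcriptome. GV polysome pools held 1.19 and 0.189 CPM and MII pools held 0.144 and 2.72 CPM, and in both stages each pool lay below all 3 transcriptomes. The log2 fold changes were -2.34 (SE 0.78, adjusted p = 0.0195) and -2.00 (SE 0.76, adjusted p = 0.0271). Both calls rested on single libraries. The GV call was lost without GV polysome replicate B (adjusted p = 0.213) or transcriptome replicate B (0.0863), and the MII call without MII polysome replicate A (0.219) or transcriptome replicate A (0.144). The size rested on the pools too, with -4.17 at GV without polysome replicate A and -5.29 at MII without polysome replicate B.

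KLF5, which is needed for the trophectoderm and for embryo survival in mice, rose at each step after the 2-cell stage in the transcriptome. The transcriptomes held 3.80, 1.60 and 3.38 CPM at the 2-cell stage, 18.9, 59.1 and 49.2 CPM at the 8-cell stage, 137.5, 180 and 184 CPM in morulae and 571, 726 and 845 CPM in blastocysts. These 4 groups did not overlap. The log2 fold changes were 3.85 (SE 0.46, adjusted p = 2.75e-07), 1.98 (SE 0.42, adjusted p = 0.00194) and 2.10 (SE 0.42, adjusted p = 0.000649). Before that, KLF5 had fallen from 12.1, 8.82 and 5.12 CPM at the MII stage to the 2-cell levels (log2 fold change -1.57, SE 0.43, adjusted p = 0.0165). That fall was lost without MII replicate A (adjusted p = 0.0977) or 2-cell replicate B (0.0973).

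In polysomes the last of these steps did not pass the threshold. KLF5 stood at 28.0 and 24.7 CPM in 8-cell polysome pools, at 62.4 and 126 CPM in morulae and at 130 and 101 CPM in blastocysts, and the change from morula to blastocyst was a log2 fold change of 0.29 (SE 0.49, adjusted p = 0.805). In blastocysts both pools lay far below the 3 transcriptomes, with a log2 fold change of -2.63 (SE 0.50, adjusted p = 0.000183), which kept its call in all 12 alternatives run on it. The difference between the polysome and the transcriptome change from morula to blastocyst itself was -1.81 (SE 0.64) and had an adjusted p of 0.0647. In the blastocyst gradients KLF5 was highest in F1, which holds free RNA, at 209 CPM in gradient A and 1697 CPM in gradient B, and it lay between 24.4 and 202 CPM in the 18 other fractions. At the MII stage KLF5 was also lower in polysomes, at 3.78 and 1.90 CPM (log2 fold change -1.61, SE 0.49, adjusted p = 0.00729), a call that was lost without MII polysome replicate B (adjusted p = 0.103).

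KLF6, an immediate early member that is abundant in the placenta, showed the opposite balance in late embryos. Its transcriptome levels were 56.6, 16.1 and 19.6 CPM at the 8-cell stage, 38.8, 23.0 and 25.6 CPM in morulae and 73.8, 114 and 90.0 CPM in blastocysts. The polysome pools held 46.4 and 42.1, 78.1 and 198, and 334 and 255 CPM at the same stages. In morulae both pools lay above all 3 transcriptomes (log2 fold change 2.24, SE 0.68, adjusted p = 0.00839), a call lost without morula polysome replicate B (adjusted p = 0.133). In blastocysts both pools also lay above all transcriptomes, but the adjusted p was 0.0511 (log2 fold change 1.67, SE 0.67), and 3 of the 12 alternatives, among them the likelihood ratio test, put it below the threshold. The light pools F3 to F5 lay above the transcriptomes too, so this balance was not particular to polysomes. They held 76.4 and 105 CPM in morulae and 278 and 297 CPM in blastocysts. At the 2-cell stage KLF6 stood at 2.36 and 5.35 CPM in polysomes against 0.837, 1.28 and 0.827 CPM (log2 fold change 1.97, SE 0.73, adjusted p = 0.028), and this call was lost without 2-cell polysome replicate B (0.263) or transcriptome replicate A (0.0797) or C (0.0779). Its rise into the 8-cell stage had a log2 fold change of 4.96 (SE 0.75, adjusted p = 7.26e-06) in the transcriptome and 3.52 (SE 0.83, adjusted p = 0.00139) in polysomes. In 8-cell transcriptomes KLF6 was highest in replicate A, as were KLF11, KLF13 and the 5 fibroblast markers, while KLF3, KLF4, KLF5, KLF10 and KLF17 were lowest there. Whether other cells contributed to these values was not tested.

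KLF2, a factor of naive pluripotency in mice and of endothelium, was scarce at every stage. Its transcriptome level was at most 0.902 CPM, and it had 0 counts in all 3 blastocyst transcriptomes. Polysome pools held 6.03 and 3.45 CPM at the 2-cell stage, the highest of any stage, against 0.228, 0.160 and 0.902 CPM in the transcriptomes. That difference passed the test with a log2 fold change of 3.44 (SE 1.38, adjusted p = 0.0417), though not without 2-cell polysome replicate A (adjusted p = 0.143) or B (0.0615), or transcriptome replicate A (0.123) or B (0.129). In blastocysts the polysome pools held 39 and 5 counts (1.70 and 0.213 CPM), and the difference from the transcriptomes passed the test (adjusted p = 0.0306). The mean of the pools was 1.36-fold the floor of 3 counts per transcriptome library, but the pool of gradient B alone lay below that floor. The blastocyst call was lost without polysome replicate A (adjusted p = 0.217) or any of transcriptome replicates A (0.0652), B (0.0799) and C (0.0811).

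KLF3, which represses many targets of other Kruppel-like factors, was low until the 2-cell stage, and from the 8-cell stage on each polysome pool lay above the transcriptomes of its stage. It stood at 22.7, 42.4 and 27.6 CPM in 8-cell transcriptomes, at 30.7, 32.9 and 32.5 CPM in morulae and at 12.9, 9.54 and 11 CPM in blastocysts, and at no more than 2.5 CPM before. Polysome pools held 137 and 153 CPM at the 8-cell stage, 90.3 and 58.6 CPM in morulae and 47.7 and 54.7 CPM in blastocysts. The light pools F3 to F5 also lay above the transcriptomes, so the excess was not particular to polysomes. They held 98.8 and 61.5, 66.9 and 72.8, and 98.3 and 76.9 CPM at these stages. The log2 fold changes of polysomes over the transcriptome were 2.23 (SE 0.96, adjusted p = 0.0483), 1.22 (SE 0.95, adjusted p = 0.287) and 2.20 (SE 0.97, adjusted p = 0.0727). Only the 8-cell difference passed, and it failed without any one of the 5 libraries of that stage, with adjusted p from 0.0648 to 0.122, and with DESeq2 (0.0689). The rise from the 2-cell stage was a log2 fold change of 4.74 (SE 1.03, adjusted p = 0.000522) in the transcriptome and of 6.06 (SE 1.31, adjusted p = 0.000659) in polysomes. At the 2-cell stage the pool of gradient A held 155 counts and that of gradient B none, so the size of the polysome rise rested on gradient A and was 14.3 in the fit without it, which starts from 0 counts and is no bound.

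KLF10, a TGF-beta-induced early gene, was the one member whose change between stages differed past the threshold between polysomes and transcriptome. Close to it came KLF5 from GV to MII (difference -2.01, adjusted p = 0.0519) and KLF17 from 2-cell to 8-cell (-3.84, adjusted p = 0.0531). The likelihood ratio test, DESeq2 and RLE scaling each called both of these. In the transcriptome KLF10 rose from 6, 1 and 0 counts in GV oocytes to 73, 63 and 34 counts (8.36, 6.39 and 4.04 CPM) in MII oocytes and fell again to 10, 7 and 4 counts in 2-cell embryos. The MII values did not overlap with either neighbour, and the log2 fold changes were 4.89 (SE 1.04, adjusted p = 0.0014) and -3.52 (SE 0.91, adjusted p = 0.0106). In polysome pools KLF10 had 3 and 26 counts at the GV stage, 4 and 10 at the MII stage and 0 and 68 at the 2-cell stage, and the polysome change from GV to MII was -0.61 (SE 1.12, adjusted p = 0.891). MII polysomes held 0.144 and 0.358 CPM and thus less KLF10 than the transcriptome (log2 fold change -4.60, SE 1.11, adjusted p = 0.00116), a call kept in all 12 alternatives run on it. This low level was not particular to polysomes. The light pools F3 to F5 of the MII gradients held 7 and 1 counts, and no single MII fraction exceeded 1.71 CPM.

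The difference between the polysome and the transcriptome change of KLF10 was -5.50 (SE 1.55, adjusted p = 0.0223) from GV to MII and 5.54 (SE 1.43, adjusted p = 0.0438) from MII to the 2-cell stage. These were 2 of 50 member and transition pairs, where 9.87% of all gene and transition pairs passed, 10.6% from GV to MII and 1.81% from MII to the 2-cell stage. The second rested on the 68 counts of 2-cell gradient B, and without that pool it was -1.66 (adjusted p = 0.818). It was also lost without any 1 of the 5 MII libraries or of 2-cell transcriptome replicates A, B and C, with adjusted p from 0.0674 to 0.142. The first had adjusted p values from 0.0501 to 0.421 without GV polysome replicate B, GV transcriptome replicate B or C, or MII polysome replicate A or B. From the 8-cell stage on, KLF10 stood between 93.5 and 166 CPM in all 9 transcriptomes and between 15.7 and 73.8 CPM in all 6 polysome pools, which did not overlap. None of the 3 late differences passed the test (adjusted p = 0.0949 to 0.279). The step from the 2-cell to the 8-cell stage had log2 fold changes of 7.75 (SE 1.04, adjusted p = 1.48e-06) in the transcriptome and 5.72 (SE 1.14, adjusted p = 0.00028) in polysomes. Without 2-cell pool B the latter starts from 0 counts and was 12.9, which is no bound.

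KLF11, the closest relative of KLF10 and likewise inducible by TGF-beta, was the one member above 10 CPM with its highest transcriptome levels before the 8-cell stage. It stood at 22.2, 26.1 and 24.1 CPM in GV transcriptomes, at 76.8, 64.0 and 71.0 CPM in MII oocytes and at 59.6, 67.5 and 50.5 CPM in 2-cell embryos. It then dropped to 36.3, 13.6 and 16.3 CPM in 8-cell embryos and to 14.0, 9.12 and 7.86 CPM in morulae, and was at 18.5, 18.5 and 18.6 CPM in blastocysts. The MII and 2-cell groups overlapped with each other and with no other stage. The rise at maturation had a log2 fold change of 1.55 (SE 0.46, adjusted p = 0.0189) and the fall at the 8-cell stage one of -1.43 (SE 0.46, adjusted p = 0.0122). The rise was lost without GV replicate A (adjusted p = 0.0751) or C (0.062) or MII replicate A (0.0519), and the fall without 8-cell replicate B (0.0662) or C (0.056).

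Polysomes held the most KLF11 at the 2-cell stage, with 112 and 88.2 CPM, and fell to 6.48 and 33.6 CPM at the 8-cell stage (log2 fold change -2.31, SE 0.58, adjusted p = 0.00228), with -3.94 without 8-cell replicate B. In morulae the pools held 13.4 and 36.1 CPM, above the transcriptomes by a log2 fold change of 1.26 (SE 0.50, adjusted p = 0.0382) although the lower pool lay within the transcriptome range. This call was lost without morula polysome replicate B (adjusted p = 0.627), transcriptome replicate B (0.0971) or C (0.124), and with DESeq2 (0.051). Without 8-cell polysome replicate B, KLF11 was lower in 8-cell polysomes than in the transcriptome (log2 fold change -1.77, adjusted p = 0.00956), where the 2 pools together gave -0.13 (SE 0.50, adjusted p = 0.839).

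KLF13, a GC-box repressor also known from lymphocytes and heart, was near the limit of detection before the 8-cell stage. GV transcriptomes had 1, 0 and 0 counts, MII transcriptomes 11, 8 and 4 and 2-cell transcriptomes 2, 0 and 3. The level then rose to 5.91, 3.85 and 2.96 CPM at the 8-cell stage (log2 fold change 4.98, SE 0.93, adjusted p = 0.000107), 11.2, 10.8 and 7.54 CPM in morulae and 24.1, 7.05 and 12.2 CPM in blastocysts. Polysome pools held 21.8 and 13.7 CPM at the 8-cell stage, above all transcriptomes (log2 fold change 2.06, SE 0.81, adjusted p = 0.0316), and 5.87 and 5.19 CPM in blastocysts, below all transcriptomes (log2 fold change -1.38, SE 0.85, adjusted p = 0.197). The 8-cell call was lost without polysome replicate A (adjusted p = 0.114) or transcriptome replicate B (0.0781) or C (0.0968). In GV oocytes 34 counts in polysomes against 1 count in the transcriptome gave a counting ratio of 14.6 with an interval from 2.44 to 591 (adjusted p = 0.016). That call was lost without polysome replicate B (0.071) or transcriptome replicate B (0.0612) or C (0.0617). At the 2-cell stage 44 counts against 5 gave a ratio of 5.0 with an interval from 1.99 to 16.2 (adjusted p = 0.0442), lost without polysome replicate B (0.355) or transcriptome replicate A (0.0823) or B (0.149).

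KLF9, a hormone-responsive relative of KLF13, was low in transcriptomes and polysome pools. It never exceeded 1.08 CPM in a transcriptome, and the highest polysome value was 2.99 CPM in morula gradient B, where gradient A had 0 counts. Of its comparisons, none passed the test in either model. At the 8-cell stage it was higher in light pools, at 8.98 and 3.32 CPM (283 and 104 counts), and its highest levels in single fractions were 18.6 CPM in F6 of gradient B and 15.01 CPM in F4 of gradient A.

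Maturation from the GV to the MII stage changed 4 members in the transcriptome, all upwards. KLF10, KLF11 and KLF13 were joined by KLF6, which went from 15, 0 and 2 counts to 35, 80 and 30 counts (log2 fold change 3.42, SE 0.76, adjusted p = 0.00204), where 6.61% of all genes rose. The size for KLF6 rested on GV replicate A, and without it the log2 fold change was 5.59. KLF13 went from 1 count to 23, a counting ratio of 27.9 with an interval from 4.54 to 1150 (adjusted p = 0.00523). In polysomes 0 of the 10 members passed the threshold, where 5.37% of all genes did in either direction. The fitted polysome changes of these 4 members were -0.61 for KLF10, 0.95 for KLF11, 0.91 for KLF13 and 1.05 for KLF6, with adjusted p from 0.391 to 0.891. Cumulus and granulosa markers were higher in the same MII transcriptomes, as given above, and summed to 44.8 to 112 CPM in MII polysome pools. Fibroblast markers moved the same way, from 1.42 to 3.38 CPM at GV to 34.2 to 78.4 CPM at MII, mostly as LUM (28.1 to 68.7 CPM), and back to 1.98 to 3.99 CPM at the 2-cell stage, with COL1A1 and COL3A1 below 1 CPM at all 3 stages. The part of either marker list in the rise and in the later fall was not tested. From the MII to the 2-cell stage KLF5, KLF6 and KLF10 fell in the transcriptome, where 5.96% of all genes fell. The fall of KLF6 was a log2 fold change of -2.41 (SE 0.70, adjusted p = 0.0221), lost without MII replicate B (adjusted p = 0.107) or 2-cell replicate A (0.0882) or C (0.095), and that of KLF10 was lost without 2-cell replicate C (0.0666).

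Over all transitions, 18 of 50 member and transition pairs passed in the transcriptome, 13 upwards and 5 downwards, where 23.0% of all gene and transition pairs did. In polysomes 12 of 50 passed, 9 upwards and 3 downwards, against 22.1%. From GV to MII and at each later transition, the transcriptome had 4, 3, 8, 1 and 2 members past the threshold, where 17.1, 12, 50.1, 14.4 and 21.6% of all genes passed. The polysomes had 0, 1, 8, 2 and 1, where 5.37, 8.51, 46.3, 36.2 and 13.9% of all genes passed. After the 8-cell stage the members past the threshold were KLF5 and KLF17. With transcriptomes fitted alone, KLF11 (log2 fold change -1.09, adjusted p = 0.00395), KLF13 (1.22, adjusted p = 0.0339) and KLF17 (-1.32, adjusted p = 0.00142) from 8-cell to morula and KLF3 (-1.49, adjusted p = 0.000918) and KLF6 (1.70, adjusted p = 0.00221) from morula to blastocyst passed as well. KLF5 rose from 8-cell to morula polysomes by a log2 fold change of 1.84 (SE 0.51, adjusted p = 0.00686), a call lost without the morula pool of replicate B (adjusted p = 0.0722).

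Between polysomes and transcriptome, 15 of 60 member and stage pairs passed, 10 higher in polysomes and 5 lower, where 49.9% of all gene and stage pairs passed, 26.1% higher and 23.8% lower. The members' share lay below that of all pairs. By stage, the numbers higher and lower were 1 and 1 at GV, 0 and 3 at MII, 4 and 0 at the 2-cell stage, 2 and 0 at the 8-cell stage, 2 and 0 in morulae and 1 and 1 at the blastocyst stage. Of all genes, 39.8, 57.5, 51.0, 59.1, 51.7 and 40.1% passed in either direction at these stages. The 3 members lower in MII polysomes were KLF4, KLF5 and KLF10, where 26.7% of all genes were lower. The 4 higher at the 2-cell stage were KLF2, KLF6, KLF13 and KLF17, where 29.1% of all genes were higher. The median log2 fold change of the 10 members was 1.45 at the 2-cell stage, where that of all genes was 0.18, and -0.17 at the MII stage, where it was 0.00. KLF9 passed at no stage. KLF2, KLF3, KLF6, KLF11, KLF13 and KLF17 were past the threshold in the upward direction alone, and KLF4, KLF5 and KLF10 in the downward direction alone.

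**Figure D3:**
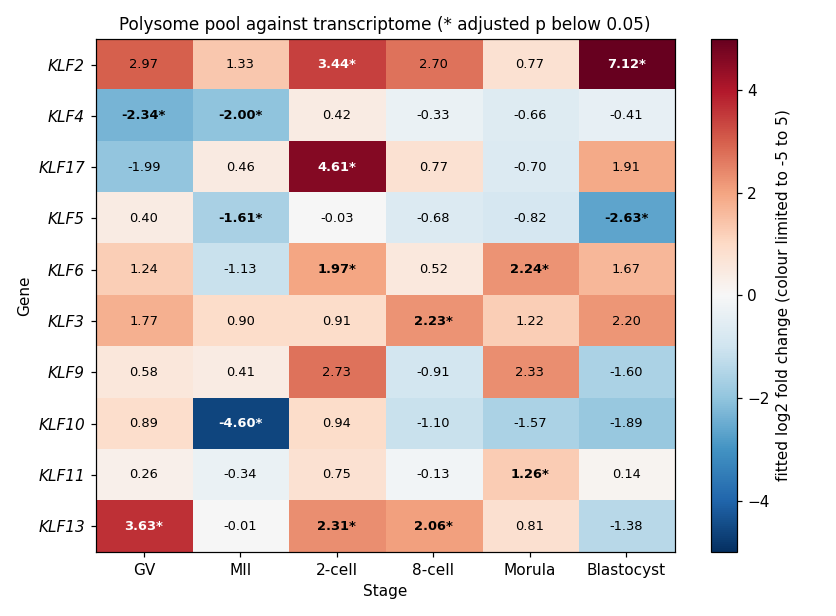
Fitted log2 fold change of the polysome pools over the transcriptome for each gene (rows) at each stage (columns), with red for higher in polysomes, blue for lower and an asterisk for an adjusted p below 0.05. KLF10 at the MII stage (-4.60) and KLF5 in blastocysts (-2.63) are the deepest blue marked cells, and the 7.12 of KLF2 in blastocysts is fitted against 0 counts and is no measure of size.

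The heavy fractions F8 to F10 were also compared with the light fractions F3 to F5 of the same gradients, which hold mRNA with a single ribosome, in a model of 14873 genes with its own scaling. Among the members 0 of 60 pairs passed edgeR's quasi-likelihood test, where 2.22% of all gene and stage pairs did. At an unadjusted p below 0.05 there were 6 pairs, 3 higher and 3 lower in the heavy fractions. The likelihood ratio test called 1, DESeq2 called 3 and RLE scaling called 1, all at the 8-cell stage or, with DESeq2, also in morulae. Over all 14873 genes at the 8-cell stage these settings called 1456, 1604 and 593 higher and 1726, 2058 and 785 lower. In morulae DESeq2 called 780 higher and 1173 lower.

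The nearest to a call was KLF11 at the 8-cell stage, with 5.90 and 29.9 CPM in heavy against 90.7 and 72.1 CPM in light pools. The gap was a log2 fold change of -2.18 (SE 0.68, adjusted p = 0.0509), and without 8-cell polysome replicate B the adjusted p was 0.0111. Morulae had the same direction, with 13.5 and 31.7 CPM against 52.0 and 99.3 CPM (log2 fold change -1.74, SE 0.67, adjusted p = 0.167). KLF13 leaned the other way, at 19.9 and 12.2 CPM in heavy against 3.71 and 0.414 CPM in light 8-cell pools (log2 fold change 2.95, SE 1.30, adjusted p = 0.142). In morulae it was at 10.3 and 21.3 CPM in heavy against 2.21 and 2.24 CPM in light pools (log2 fold change 2.83, SE 1.29, adjusted p = 0.239). In these 4 comparisons of KLF11 and KLF13 the heavy and light pools did not overlap. KLF17 in blastocysts was at 1.47 and 0.251 CPM in heavy and at 23.2 and 9.26 CPM in light pools (log2 fold change -4.23, SE 1.60, adjusted p = 0.21), while the 3 transcriptomes together held 3 counts.

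**Figure D4:**
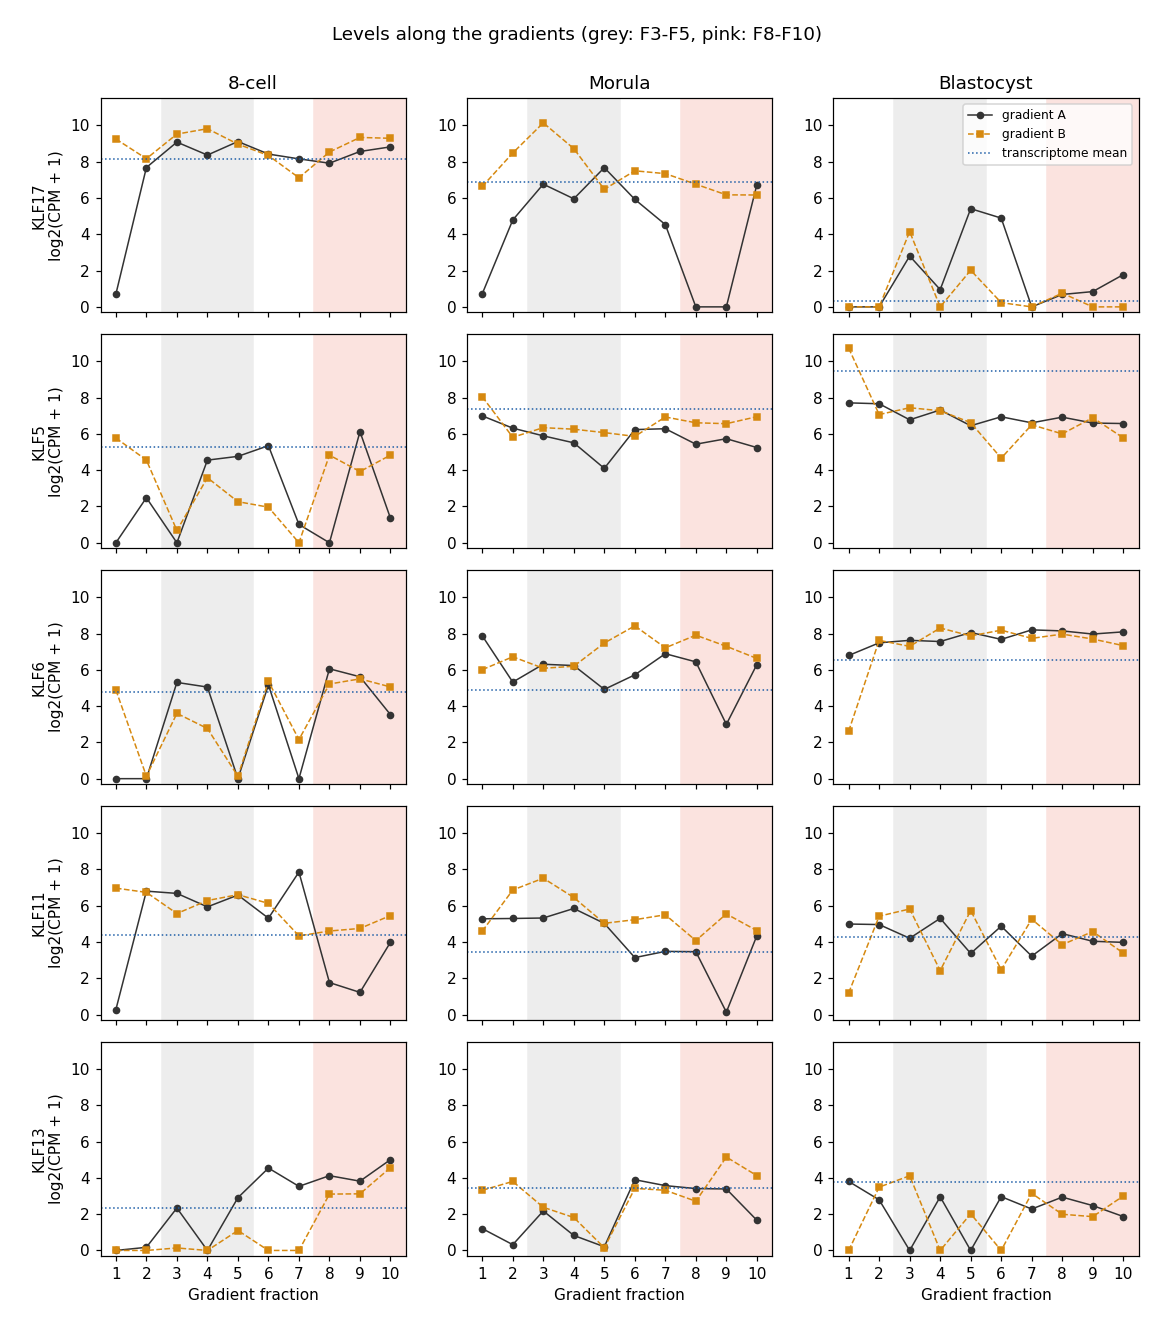
Levels of KLF17, KLF5, KLF6, KLF11 and KLF13 on a log2(CPM + 1) scale (vertical axes) in fractions F1 to F10 (horizontal axes) of gradients A (circles, solid) and B (squares, dashed) at the 8-cell, morula and blastocyst stages, with F3 to F5 shaded grey, F8 to F10 shaded pink and the mean of the 3 transcriptomes dotted. KLF5 in blastocysts lies under the dotted line in 19 of 20 fractions, and neighbouring fractions of low or 8-cell profiles jump by several units.

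Neighbouring fractions of a gradient often disagreed for single members, which limits how finely a profile can be read. KLF5 in 8-cell gradient A, for example, was at 0 in F8, at 68.8 CPM in F9 and at 1.56 CPM in F10. KLF6 in the same gradient was at 0 in F5 and F7 and at 35.1 CPM in F6. In blastocysts KLF6 was steadier, between 250 and 282 CPM in F8 to F10 of gradient A and between 160 and 250 CPM in gradient B. Salmon shares reads between related sequences by estimate, and how much the similar zinc fingers of the members exchanged reads was not tested.

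Of 8 other Kruppel-like factors on the list, 7 were in the table and 4 were tested in the first model. They made 11 calls in 24 gene and stage pairs, 9 of them higher in polysomes, where 49.9% of all gene and stage pairs were called and 26.1% were higher. KLF16, a relative of KLF9 and KLF13, was higher in polysomes at all 6 stages, with 9.41 to 44.3 CPM in the 12 pools against 0 to 3.46 CPM in the 18 transcriptomes. Its log2 fold changes ran from 3.72 (SE 0.78, adjusted p = 0.000346) at the 2-cell stage to 6.31 (SE 0.89, adjusted p = 2.35e-06) at the 8-cell stage. None of the 10 members showed such a difference at every stage. Between consecutive stages the 4 other factors made 0 rises and 1 fall in 20 transcriptome pairs, where 23.0% of all gene and transition pairs passed. In polysomes they made 1 rise and 2 falls in 20 pairs, against 22.1%.

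Corepressors and acetyltransferases that work with the family were measured in 9 genes. CTBP1, the partner of KLF3, was higher in polysomes at 5 stages, for instance with 365 and 498 CPM against 12.6, 12.3 and 17 CPM at the 2-cell stage (log2 fold change 4.95, SE 0.49, adjusted p = 1.51e-08). From the 2-cell to the 8-cell stage 4 of the 9 rose and 3 fell in the transcriptome, where 26.6% of all genes rose and 23.5% fell. KAT2B rose (log2 fold change 4.27, SE 1.10), and SIN3A (-3.00, SE 0.38), SIN3B (-2.55, SE 0.57) and CTBP1 (-2.21, SE 0.44) fell. Of the members named above with these corepressors, KLF3, KLF10 and KLF13 rose, KLF11 fell and KLF9 did not pass the threshold. In polysomes 2 of the 9 genes rose and 4 fell, where 21.0% of all genes rose and 25.2% fell. Among them were HDAC1 (2.73, SE 0.33) and EP300 (1.64, SE 0.47) upwards and CTBP1 (-2.32, SE 0.51) and SIN3B (-2.02, SE 0.67) downwards. Of 4 ubiquitin ligases known to act on members of the family, SMURF1 (-4.09, SE 0.41), BTRC (-2.46, SE 0.53) and FBXW7 (-2.10, SE 0.47) fell in the transcriptome at this step and none rose. In polysomes SMURF1 (-2.08, SE 0.46) and BTRC (-1.83, SE 0.64) fell and WWP1 (1.64, SE 0.57) rose.

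Genes that act beside the members changed at the same step, for which the shares of all genes just given apply. Of 14 tested genes of the pluripotency network, 8 rose and 3 fell in the transcriptome and 6 rose and 3 fell in polysomes. ESRRB, which binds many sites together with KLF4, went from 1, 0 and 2 counts to 251, 643 and 554 counts in the transcriptome and from 1.97 and 0.769 CPM to 1456 and 1436 CPM in polysomes, and NANOG from 0, 1 and 0 counts to 1469, 2453 and 2358 counts. Of 12 immediate early genes, 8 rose and 0 fell in the transcriptome, and 4 rose and 2 fell in polysomes. IER2 was among the risers in both, from 0.228 to 0.320 CPM to 11.47 to 40.1 CPM in the transcriptome and from 3.78 and 7.14 CPM to 849 and 597 CPM in polysomes. Over all stages, 40 of 72 immediate early pairs were higher in polysomes and 1 was lower, where 26.1% and 23.8% of all pairs were. Of 8 genes of TGF-beta signalling, to which KLF10 and KLF11 respond, 3 rose and 2 fell in the transcriptome, and 2 rose and 4 fell in polysomes. TGFBR1, a receptor, fell in polysomes from 4.64 and 13.1 CPM to 3 and 2 counts. Of 7 SP factors, which share the zinc fingers and GC-box sites of the family, SP1 rose in the transcriptome (log2 fold change 1.56, SE 0.42) and none fell. In polysomes SP1 (1.40, SE 0.51) and SP5 rose, the latter from 5 and 0 counts to 464 and 1211, and SP4 and SP8 fell, from 20 and 32 and from 227 and 206 counts to 0 in both pools. Over all stages 12 of 42 SP pairs were higher and 6 lower in polysomes. Of 8 trophectoderm genes, 2 rose and 4 fell in the transcriptome and 3 rose and 2 fell in polysomes, and over all stages 22 of 48 pairs were higher and 2 lower in polysomes, against the same shares of all pairs.

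Across the 12 group means of log2(CPM + 1), KLF4 and KLF10 had the most similar courses among the members that reached 10 CPM (r = 0.968). KLF11 ran against each of the 7 others, with r from -0.757 for KLF3 to -0.591 for KLF6. Among 11602 genes, those most like a member were PYY for KLF3 (r = 0.989), TYW3 for KLF4 (0.986), B3GNT2 for KLF5 (0.974), CCN1 for KLF6 (0.981), MARCKS for KLF10 (0.987), RCAN3 for KLF11 (0.916), CHST2 for KLF13 (0.980) and SCGN for KLF17 (0.974). All points come from the same 30 libraries, and genes with an 8-cell step share most of their variation, so these values are a description.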

How the data were processed

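Smart-seq2 libraries of 120 gradient fractions and 18 transcriptomes from 6 stages were deposited by the authors as estimated counts per gene symbol from Salmon, not normalized, of which 11.7% were not whole numbers. The labels name the UMD3.1 build and the methods ARS-UCD1.2, so no coordinates are given. Groups came from the stage and library type in the labels. Samples of a group are separate pools, with no record here of separate animals, so p-values measure the spread between these pools. No library was identical to another of its group.

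Counts of F8 to F10 (heavy, polysomes) and of F3 to F5 (light) were summed per gradient and rounded. Fits used edgeR 4.0.16 in R 4.3.3 (filterByExpr, TMM, quasi-likelihood F test, Benjamini-Hochberg adjustment over all genes of a contrast), the first model with 30 libraries and 14612 genes, the second with 24 libraries and 14873 genes, each with 12 groups. The tests were checked on simulated data. SE is the absolute log2 fold change divided by the square root of F. Ratios at low counts have exact 95% intervals for counting error only, with a floor of 3 counts per library. Alternatives were the likelihood ratio test, DESeq2 1.42.0, RLE scaling, no filter, a replicate block, F9 and F10 as polysomes, 1 kind of library alone, the fold limit, and leaving out each library. Transcriptomes share a letter with gradients but not a pool, and their deviations from group means correlated at -0.065 to 0.0095. Heavy and light pools of a letter came from 1 gradient (-0.0774 to 0.169), and the block by gradient changed no call of a member there.

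The members and the lists of related genes were chosen with earlier results of these data known. All members are named. From each list at most 4 called genes with the largest absolute log2 fold change are named, and the genes most like a member have the highest Pearson correlation over group means among genes reaching 10 CPM in a group.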

Additional observations from a re-analysis of the deposited data

Results flagged for a closer look

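Of the members, KLF10 had 2 changes between stages that differed between polysomes and transcriptome by edgeR's test of the difference itself. From GV to MII the polysome change was lower than the transcriptome change by a log2 difference of -5.50 (adjusted p = 0.0223), with 7 and 170 counts in the transcriptomes of the 2 stages and 29 and 14 counts in the polysome pools. From MII to the 2-cell stage the difference was 5.54 (adjusted p = 0.0438), with 170 and 21 counts in the transcriptomes and 14 and 68 counts in the polysome pools. The light pools of the MII gradients held 7 and 1 counts of KLF10, so it was low there in light and heavy fractions alike. The cumulus and granulosa markers and the fibroblast markers were also highest in MII transcriptomes among the first 3 stages, and the part of these lists in either difference was not tested.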

How the results depend on the processing

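Of the members' calls, KLF10 at the MII stage, KLF17 at the 2-cell stage and KLF5 in blastocysts, all between polysomes and transcriptome, and all 7 rises from the 2-cell to the 8-cell stage in the transcriptome passed under every alternative run on them. So did the transcriptome rises of KLF6, KLF10 and KLF13 from GV to MII and of KLF5 at both transitions after the 8-cell stage. The transcriptome fall of KLF17 after the morula stage also passed throughout, as did the polysome rises of KLF4, KLF5, KLF6, KLF13 and KLF17 from the 2-cell to the 8-cell stage. Member pairs higher in polysomes than in the transcriptome numbered 5 with a replicate block against 10 without it. Transcriptomes fitted alone gave 9 falls between stages against 5, over 40 member and transition pairs in place of 50, since KLF2 and KLF9 did not pass the filter there and had no call before. Polysome pools fitted alone gave 5 rises and 0 falls against 9 and 3, the lost ones including KLF3 (adjusted p = 0.0617), KLF10 (0.0639) and KLF11 (0.0738) from the 2-cell to the 8-cell stage. Calls over all genes dropped in that fit too, even with no fold limit. From 2-cell to 8-cell 1358 of 14339 genes rose and 996 fell, against 3074 and 3685 of 14612 in the main fit. From morula to blastocyst 8 rose and 21 fell, against 846 and 1188. Differences between polysome and transcriptome change numbered 1 higher and 1 lower, and instead 2 and 4 with the likelihood ratio test, 2 and 4 with DESeq2, 3 lower with RLE scaling and 0 higher with the replicate block. Between heavy and light fractions, where no pair passed, DESeq2 gave 1 higher and 2 lower, and the likelihood ratio test and RLE scaling gave 1 lower each. With F9 and F10 as polysomes, calls were lost for KLF4 at MII (adjusted p = 0.0549), KLF2 (0.0647) and KLF13 (0.0577) at the 2-cell stage, KLF17 from MII to 2-cell (0.0918) and from 8-cell to morula (0.0575) and KLF5 from 8-cell to morula (0.0731). RLE scaling lost KLF13 at the 2-cell stage (0.0571), KLF3 at the 8-cell stage (0.0782) and KLF11 in morulae (0.0642), and the fit with no filter lost KLF2 (0.0545) and KLF13 (0.0566) at the 2-cell stage. The causes were not tested.

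Leaving out 1 library at a time gave 7 to 11 pairs higher and 4 to 6 lower in polysomes, 12 to 13 transcriptome rises, 3 to 5 transcriptome falls (3 without 2-cell transcriptome replicate C), 8 to 10 polysome rises, 3 to 4 polysome falls, 0 to 2 higher and 0 to 3 lower differences of change, and 0 to 1 lower in heavy fractions (1 without 8-cell polysome replicate B). Sign changes of values past the threshold neither before nor after were not counted. The others were KLF3 at the 2-cell stage without polysome replicate A (-7.34, adjusted p = 0.00292, range -7.34 to 1.89), KLF10 at the 2-cell stage without polysome replicate B (-6.27, adjusted p = 0.00696, range -6.27 to 1.93) and the MII to 2-cell difference of KLF10 without 2-cell polysome replicate B (range -1.66 to 6.54). Both 2-cell values then compare the transcriptome with 0 counts in 1 pool. The replicate letters do not mark shared pools of polysomes and transcriptomes, so the block is only a check.

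RLE scaling moved the median log2 difference of all genes between polysomes and transcriptome by -0.17 at the 2-cell stage, -0.24 at the 8-cell stage, -0.11 in morulae and -0.15 in blastocysts, and stage changes by at most 0.16 in size. In simulated counts, the test of polysomes against transcriptome at the 8-cell stage over 14612 genes recovered 2% of 2-fold, 26% of 4-fold, 40% of 8-fold and 62% of 16-fold changes. That of heavy against light fractions over 14873 genes recovered 0%, 2%, 16% and 26%. In these simulations 50 genes were changed at each size and all others were left flat. In the data 59.1% and 9.35% of all genes passed these 2 tests at the 8-cell stage. The adjustment for multiple tests depends on that share, so the recovered shares hold for the simulated setting only.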

Other observations

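In the GV and MII gradients KLF17, absent or nearly so from the transcriptomes of those stages, had 26 counts in the light pool of GV gradient A and 0 in that of gradient B, and 2 and 0 in the light pools at MII. KLF2 was at 2.90 and 6.42 CPM in light pools of morulae, while the transcriptomes of that stage held 3, 5 and 0 counts. In single blastocyst fractions KLF17 was at 41.6 CPM in F5 and 28.7 CPM in F6 of gradient A and at 16.7 CPM in F3 of gradient B, and at 0 in F1 and F2 of both gradients.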
